A study of Mus musculus with 6 samples.

Results

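The genes described here are 9 members of the network around the transcription factors MYC and MYB: Myc and Mycn of the MYC family, their dimerisation partner Max, the MAX-binding antagonists Mxd1, Mxd3, Mxd4, Mnt and Mga, and Myb. They were chosen by gene name, and all 9 were found among the 23337 genes of the count table. RNA-seq read counts came from sorted leukaemia initiating cells (LICs), the cells of a leukaemia that can give rise to it again, of mice, with 3 libraries labelled adult (numbered 1, 2 and 4) and 3 labelled neonatal (numbered 4, 7 and 8). The labels call the source material haematopoietic stem and progenitor cells, and they give no strain, genotype, driver of the leukaemia, sort gate, sex or exact age for either group. Separate animals are not stated for the libraries either. The p-values therefore reflect the spread between these libraries alone, which may be technical. The comparison asked how adult LICs differ from neonatal LICs.

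MYC is a helix-loop-helix protein that activates genes of growth, ribosome production and metabolism when it is paired with MAX. MXD proteins and MNT compete for MAX and bring repressors to the same DNA element, the E-box, while MGA joins MAX to a Polycomb-type complex. MYB is a separate factor that blood progenitors need in order to divide and to stay immature, and many acute leukaemias depend on both MYB and MYC.

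Promoter sequences from RefSeq (GRCm38.p6, 250 bases before to 50 after the gene start) matched 8 of the 9 members, all but Myc. The palindromic E-box CACGTG was found in 3 of these 8 promoters, against 7.15% of all 32851 promoters. The 3 windows are shown because they place the element that MYC, MXD and MNT share with MAX in the genes of MAX itself and of 2 of its partners. Capitals mark the E-box, which begins 3 bases before the gene start in Max (window chr12:76962226-76962271, minus strand), 123 bases before it in Mnt (chr11:74830781-74830826, plus strand) and 219 bases before it in Mxd4 (chr5:34187904-34187949, minus strand).
Max: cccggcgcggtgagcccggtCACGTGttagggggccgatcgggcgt
Mnt: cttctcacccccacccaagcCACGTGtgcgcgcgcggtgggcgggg
Mxd4: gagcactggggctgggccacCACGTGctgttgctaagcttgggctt

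The E2F-type element TTTGGCG was chosen after the members' promoters had been read, and it was searched on both strands like the E-box. E2F factors are known regulators of Myb and Mycn. The element was found in 2 of the 8 promoters, those of Myb and Mycn, against 1.56% of all promoters. Because it was chosen after these promoters had been read, the shares cannot test enrichment. In Myb it begins 12 bases before the gene start (chr10:21160970-21161016, minus strand). Mycn holds it at 2 places, which begin 183 and 168 bases before the gene start, and the window shown is centred on the nearer (chr12:12941978-12942024, minus strand). Capitals mark the element, except the farther copy in Mycn, which is in lower case. These 2 promoters belong to the member with the highest level in most libraries and to the member with no reads, as described next. A match of letters is a description and not a measured binding site.
Myb: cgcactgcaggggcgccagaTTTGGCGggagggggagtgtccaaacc
Mycn: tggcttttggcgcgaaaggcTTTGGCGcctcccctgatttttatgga

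Library totals were 60113466 to 65183188 counts in adult LICs. Neonatal replicates 7 and 8 held 64712241 and 66132051 counts, and neonatal replicate 4 held 3932833, a depth 16.2 times below the average of the other 5. Long genes also stood low in neonatal replicate 4: relative to each gene's mean over the libraries, the median over 2187 tested genes with exons longer than 5000 bases was -0.68 (log2), and over 2613 genes shorter than 1500 bases it was 0.50. In the other 5 libraries these medians ran from -0.06 to 0.15 and from -0.28 to -0.04. Fitted fold changes are therefore given with and without this library. Reads of the Y-linked genes Ddx3y, Eif2s3y, Kdm5d and Uty numbered 19211 to 22630 in each adult library and 1 or 2 in each neonatal library, and Xist was at 0.610 to 0.920 CPM (counts scaled to library size) in adult LICs and 51.7 to 185.9 CPM in neonatal LICs. Age group and the sex of the cells cannot be told apart in these libraries.

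In CPM, Myc was lower in all adult libraries than in any neonatal library, and Mga was higher in all adult libraries. Max stood just below the neonatal range in adult LICs, again in CPM. None of the 8 members with enough reads passed edgeR's test over all genes. With edgeR's quasi-likelihood test on 6 libraries, 0 of 8 members were called (adjusted p below 0.05 over 13272 genes), where 0.0527% of all genes tested were called. At an unadjusted p below 0.05 there was 1 member, Mga, against 11.9% of all genes. DESeq2 and limma voom also called 0, against 5.72% and 0.0527% of all genes. Without neonatal replicate 4, edgeR again called 0 of 8, where 5.98% of 13856 genes were called, with 3 members at an unadjusted p below 0.05 (Myc, Max and Mga), against 29.5% of all genes. On those 5 libraries limma voom called 0, against 6.70% of all genes. DESeq2 called 3, Myc and Max lower and Mga higher in adult LICs, and it called 24.0% of all genes. Groups did not overlap in CPM for 3 of 8 members on 6 libraries, against 19.6% of all genes tested, and for 5 of 8 without neonatal replicate 4, against 50.6%. The median log2 fold change of the 8 members was -0.10 on 6 libraries (4 positive, 4 negative), beside -0.05 over all genes. Without neonatal replicate 4 it was -0.32 (3 positive, 5 negative), beside 0.05 over all genes.

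**Figure D1:**
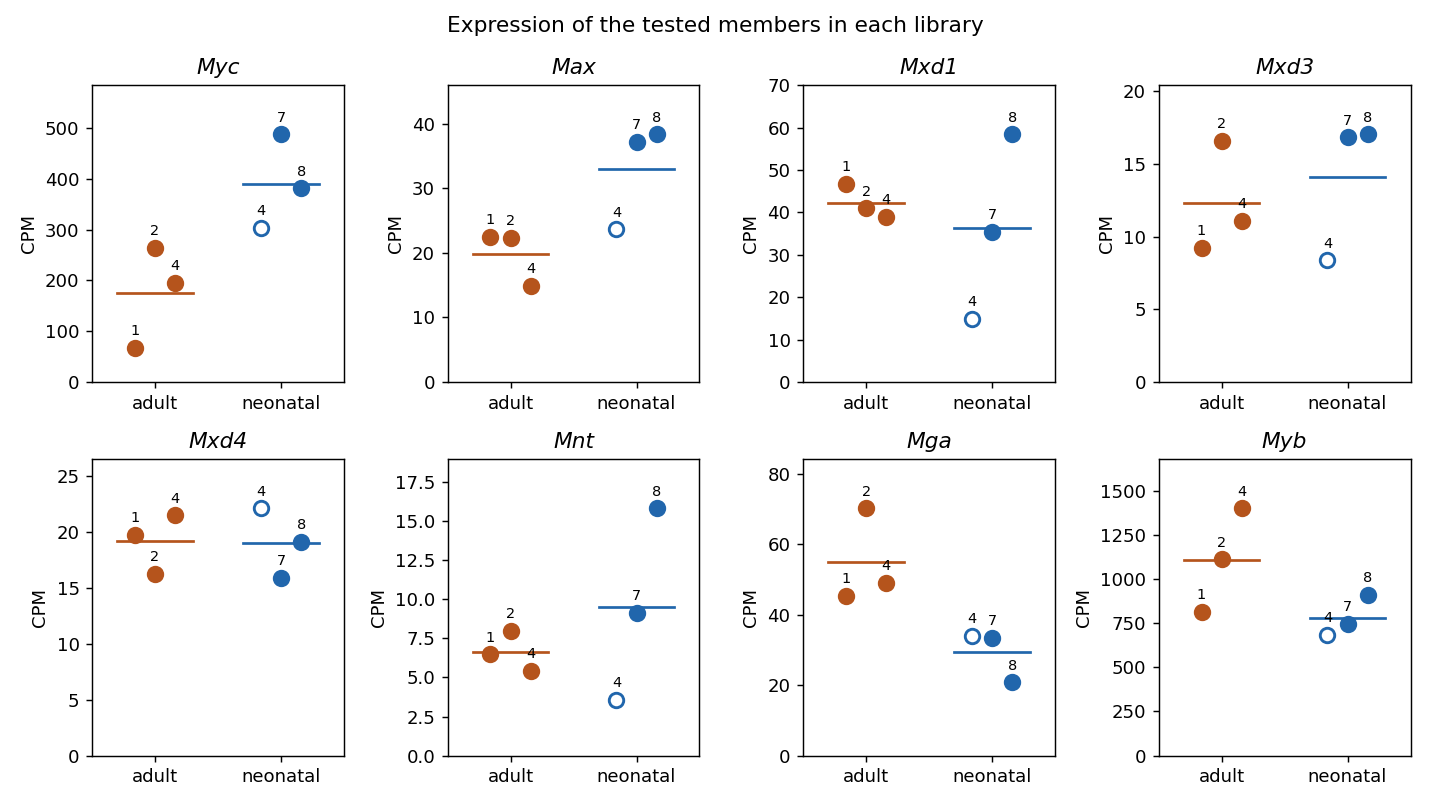
Expression of the 8 tested members in CPM (TMM-scaled, linear axis) in adult and neonatal LICs, with 1 point per library labelled by its replicate number, a bar at the group mean and an open circle for neonatal replicate 4. The groups are apart for Myc, Max and Mga and overlap for the other 5 members.

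Myc (chromosome 15, 61985341 to 61990361, mm10) encodes the MYC activator itself. It was at 66.9, 264 and 195.5 CPM in adult replicates 1, 2 and 4, against 303, 488 and 381.5 CPM in neonatal replicates 4, 7 and 8. Adult replicate 1 was the lowest by a wide margin, and the highest adult library lay below the lowest neonatal one. The adult mean was 176 ± 100.3 CPM and the neonatal mean 391 ± 92.7 CPM (SD, n = 3 each). The log2 fold change, adult minus neonatal, was -1.15 ± 0.50 (SE), with a 95% interval of -2.32 to 0.01 and an adjusted p of 0.424 in edgeR. Leaving out neonatal replicate 4 gave -1.32 ± 0.52 (SE, edgeR adjusted p = 0.158), and DESeq2 on the same 5 libraries gave -1.33 with an adjusted p of 0.0405. Without adult replicate 1 the log2 fold change was -0.79 (edgeR adjusted p = 0.711).

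Mycn (chromosome 12, 12936093 to 12941836), which encodes N-MYC, the family member best known from neural tumours and early stem cells, had 0 counts in each of the 6 libraries. A count of 0 allows up to 3 counts, which is 0.0460 to 0.0499 CPM of the library total in the adult libraries, against 0.763, 0.0464 and 0.0454 CPM in neonatal replicates 4, 7 and 8. No fold can be given. The third family member, Mycl (listed as Mycl1), was not among the 9 and was low: 0, 1.16 and 0.468 CPM in adult replicates 1, 2 and 4, against 0.897, 7.20 and 2.64 CPM in neonatal replicates 4, 7 and 8. The Mycl1 groups overlapped only through neonatal replicate 4, where the value rests on 3 counts (log2 fold change -2.76 ± 1.43, SE, edgeR adjusted p = 0.509, and -3.18 without that library, adjusted p = 0.213).

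Max (chromosome 12, 76937269 to 76962248) encodes the partner with which MYC and its antagonists bind the E-box. Its level was 22.4, 22.3 and 14.9 CPM in adult replicates 1, 2 and 4, against 23.6, 37.1 and 38.3 CPM in neonatal replicates 4, 7 and 8. Neonatal replicate 4 was close to the upper adult libraries, and its 79 counts carry an exact Poisson 95% interval of 18.7 to 29.4 CPM, which covers counting error only and reaches into the adult range. Max had an adult mean of 19.9 ± 4.30 CPM and a neonatal mean of 33.0 ± 8.17 CPM (SD, n = 3 each), which is -0.74 ± 0.35 on the log2 scale (SE, 95% interval -1.56 to 0.08, edgeR adjusted p = 0.471). On the 5 libraries other than neonatal replicate 4 the log2 fold change was -0.94 ± 0.26 (SE, edgeR adjusted p = 0.0766, DESeq2 adjusted p = 0.0116).

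The MXD genes encode the repressors that take over MAX as cells leave the cycle and mature. Mxd1 (chromosome 6, 86647045 to 86669159), the member that is induced as granulocytes mature, was at 46.75, 41.0 and 38.9 CPM in adult replicates 1, 2 and 4, against 14.9, 35.4 and 58.4 CPM in neonatal replicates 4, 7 and 8. The adult libraries were close together and lay inside the neonatal range. The log2 fold change of Mxd1 was 0.21 ± 0.47 (SE, 95% interval -0.89 to 1.30, edgeR adjusted p = 0.918), and it was -0.16 without neonatal replicate 4 (edgeR adjusted p = 0.721). Mature neutrophils are known to express Mxd1, and the 12 maturing neutrophil markers summed to 6290, 15284 and 1956 CPM in adult replicates 1, 2 and 4, against 352, 446 and 251 CPM in neonatal replicates 4, 7 and 8. The part of maturing neutrophils in the level of Mxd1 was not tested. Fewer cells of a type and less RNA per cell cannot be told apart in bulk samples.

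Mxd3 (chromosome 13, 55325168 to 55329730), the MXD family member linked to dividing cells, was at 9.22, 16.6 and 11.1 CPM in adult replicates 1, 2 and 4, against 8.37, 16.8 and 17.0 CPM in neonatal replicates 4, 7 and 8. Adult replicate 2 stood with neonatal replicates 7 and 8, and the groups overlapped. Its log2 fold change was -0.21 ± 0.44 (SE, 95% interval -1.22 to 0.80, edgeR adjusted p = 0.911). On the 5 deeper libraries it was -0.47 ± 0.35 (SE, edgeR adjusted p = 0.406), and both remaining neonatal libraries then lay above every adult library. Mxd3 shares exon bases with 1 other gene, Prelid1, and without strand the reads there cannot be told apart, so its level is uncertain. The other 8 members share exon bases with no gene of the table.

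Mxd4 (chromosome 5, 34176580 to 34187710), a further repressor of the family that is known from resting and maturing cells, varied least. It was at 19.7, 16.3 and 21.5 CPM in adult replicates 1, 2 and 4, against 22.1, 15.9 and 19.1 CPM in neonatal replicates 4, 7 and 8. The groups overlapped over nearly their whole range. Mxd4 had an adult mean of 19.2 ± 2.67 CPM and a neonatal mean of 19.05 ± 3.10 CPM (SD, n = 3 each). The difference of 0.01 ± 0.33 on the log2 scale (SE, edgeR adjusted p = 0.994) had a 95% interval of -0.75 to 0.78, so differences up to those sizes were not resolved. It was 0.12 ± 0.27 without neonatal replicate 4 (SE, edgeR adjusted p = 0.801).

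Mnt (chromosome 11, 74830924 to 74845725) encodes the antagonist that is present in most cells, dividing or not. It was at 6.485, 7.98 and 5.42 CPM in adult replicates 1, 2 and 4, against 3.59, 9.15 and 15.8 CPM in neonatal replicates 4, 7 and 8. Neonatal replicates 7 and 8 were above every adult library and neonatal replicate 4 was below them. That lowest value rests on 12 counts, with an exact Poisson 95% interval of 1.85 to 6.27 CPM that reaches adult replicate 4. The log2 fold change of Mnt was -0.55 ± 0.57 (SE, edgeR adjusted p = 0.7865), and without neonatal replicate 4 it was -0.92 ± 0.41 (SE, edgeR adjusted p = 0.186). Without neonatal replicate 8 it was 0.02 (edgeR adjusted p = 0.995).

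Mga (chromosome 2, 119897228 to 119969581) encodes a large scaffold that binds MAX and recruits the Polycomb-type complex which silences germline genes, and it had the lowest unadjusted p of the 8 members on 6 libraries (0.0309). Its level was 45.5, 70.3 and 49.1 CPM in adult replicates 1, 2 and 4, against 34.1, 33.5 and 20.8 CPM in neonatal replicates 4, 7 and 8. Every adult library lay above every neonatal one. Mga had an adult mean of 55.0 ± 13.4 CPM and a neonatal mean of 29.5 ± 7.50 CPM (SD, n = 3 each), which is 0.90 ± 0.35 on the log2 scale (SE, 95% interval 0.11 to 1.70, edgeR adjusted p = 0.361). Leaving out neonatal replicate 4 gave 1.01 ± 0.31 (SE, edgeR adjusted p = 0.09475, DESeq2 adjusted p = 0.0192).

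Mga is also the longest member, with 13931 exon bases, and transcripts of that length moved between libraries as a class. The smoothed trend of expression on exon length, read at the length of Mga, was 0.37, 0.54 and 0.22 (log2) in adult replicates 1, 2 and 4, against -0.64, -0.17 and -0.31 in neonatal replicates 4, 7 and 8. There were 216 tested genes with more than 10000 exon bases. With each library's length trend removed, an alternative chosen after the data were seen, the log2 fold change of Mga was 0.12 on 6 libraries (edgeR adjusted p = 0.940) and 0.39 without neonatal replicate 4 (edgeR adjusted p = 0.351). The same step left Myc at -1.11 and Max at -0.64 on 6 libraries, and at -1.19 and -0.82 without neonatal replicate 4.

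Myb (chromosome 10, 21124930 to 21160984) was among the most abundant transcripts of these cells, at ranks 52 to 138 of 13272 tested genes by CPM in the adult libraries and 107 to 288 in the neonatal ones. It was at 813, 1111 and 1400.4 CPM in adult replicates 1, 2 and 4, against 683, 746 and 909.6 CPM in neonatal replicates 4, 7 and 8. Adult replicate 1 lay within the neonatal range and the other 2 adult libraries lay above it. Myb had an adult mean of 1108 ± 294 CPM and a neonatal mean of 779.5 ± 117 CPM (SD, n = 3 each), or 0.51 ± 0.33 on the log2 scale (SE, 95% interval -0.25 to 1.26, edgeR adjusted p = 0.611). On the 5 deeper libraries the value was 0.41 ± 0.27 (SE, edgeR adjusted p = 0.345).

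**Figure D2:**
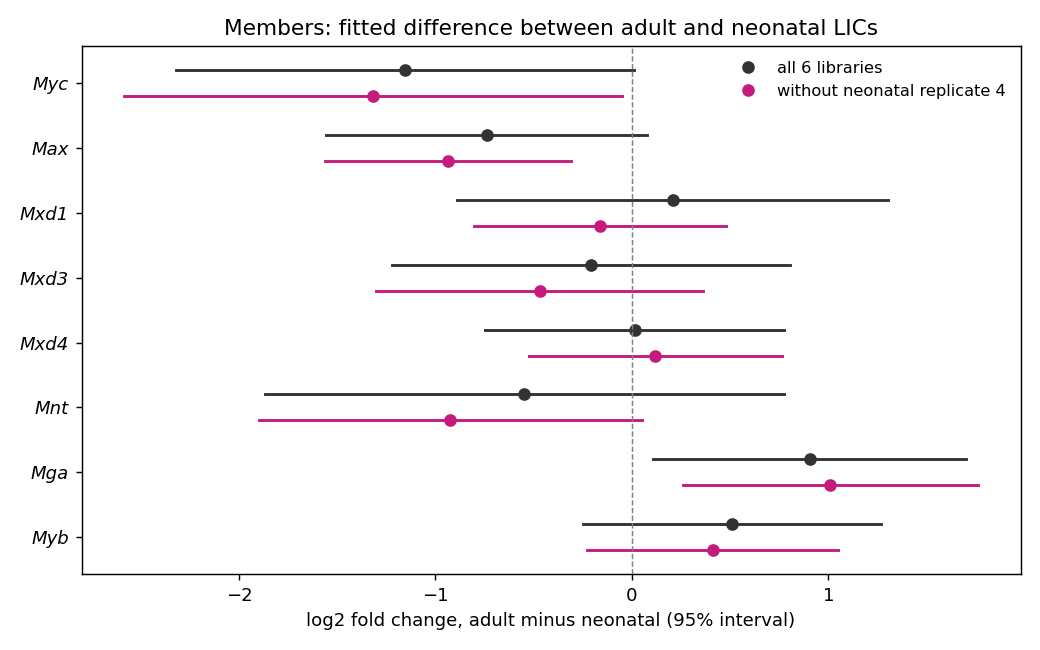
Fitted log2 fold changes, adult minus neonatal, of the 8 tested members (points) with their 95% intervals (lines) from edgeR on all 6 libraries and without neonatal replicate 4. The interval lies above 0 for Mga in both fits, and below 0 for Myc and Max only without neonatal replicate 4, before adjustment over all genes.

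Levels of different genes were compared as TPM, which corrects for exon length within a library. In adult LICs the order of mean TPM was Myb (514 ± 163), Myc (129 ± 75.3), Mxd4 (28.25 ± 4.70), Max (17.1 ± 3.07), Mxd3 (16.5 ± 5.39), Mxd1 (15.7 ± 0.649), Mga (6.86 ± 1.76) and Mnt (2.50 ± 0.465). In neonatal LICs it was Myb (365 ± 137), Myc (295 ± 139), Max (30.0 ± 14.0), Mxd4 (27.3 ± 4.98), Mxd3 (20.1 ± 10.9), Mxd1 (14.7 ± 10.5), Mnt (3.95 ± 2.94) and Mga (3.60 ± 1.22), all as SD with n = 3. In adult LICs the neighbours Max, Mxd3 and Mxd1 did not differ beyond their spread. In neonatal LICs the same holds for Myb and Myc and for all neighbours among Max, Mxd4, Mxd3 and Mxd1, and for Mnt and Mga. That spread is between libraries. In TPM, unlike in CPM, the groups overlapped for Myc and Max. Neonatal replicate 4 was at 147.9 TPM for Myc, within the adult range of 45.6 to 192.1 TPM. For Max it was at 13.79 TPM, within the adult range of 13.58 to 19.36 TPM. Mga did not overlap in TPM either. Within each neonatal library Mxd4 was above Mxd3 and Mxd3 above Mxd1. The 3 were at 22.0, 7.54 and 3.75 TPM in neonatal replicate 4 and at 28.2, 27.0 and 15.8 TPM in neonatal replicate 7. In neonatal replicate 8 they were at 31.8, 25.75 and 24.6 TPM. The other neighbours named changed order between libraries. The ratio of Myb to Myc TPM was 7.72, 2.67 and 4.55 in adult replicates 1, 2 and 4, against 1.43, 0.971 and 1.515 in neonatal replicates 4, 7 and 8, so that the adult libraries held more Myb per Myc transcript in every case.

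Among the 7 members that pair with MAX, Myc made up 42.0, 72.3 and 67.2% of the summed TPM in adult replicates 1, 2 and 4, against 80.0, 84.1 and 77.3% in neonatal replicates 4, 7 and 8. Each neonatal share was above each adult share. The antagonists Mxd1, Mxd3, Mxd4, Mnt and Mga together came to 63.1, 73.5 and 72.8 TPM in adult replicates 1, 2 and 4, against 37.0, 80.2 and 91.9 TPM in neonatal replicates 4, 7 and 8. The means of that sum were 69.8 ± 5.82 TPM in adult and 69.7 ± 28.9 TPM in neonatal LICs (SD, n = 3 each). Neonatal replicate 4 lay below every adult library, while neonatal replicates 7 and 8 lay above every one. The near-equal means therefore rest on neonatal replicate 4. The place of that library depends on the scale used. Its Mxd4 level was the highest of all libraries in CPM (22.12) and the lowest in TPM (21.96). Per antagonist transcript there were 0.723, 2.615 and 2.05 Myc transcripts in the adult libraries, against 3.99, 5.29 and 3.40 in the neonatal ones. With Mxi1, a further MXD family gene outside the 9, counted among the antagonists, the ratios were 0.317, 1.315 and 1.03 in the adult libraries, against 2.08, 2.99 and 1.92 in the neonatal ones. Mga took 4.92, 3.31 and 2.905% of the partners' TPM in adult replicates 1, 2 and 4, against 1.55, 0.994 and 0.726% in neonatal replicates 4, 7 and 8. TPM does not remove the length trend that differs between libraries. At the length of Mga that trend was higher in every adult library than in any neonatal one. In neonatal replicate 4 it was -0.723 (log2) at the length of Mxd1 and -0.715 at that of Mnt. In every other library it was 0.055 to 0.19 at these lengths. These shares describe mRNA, and they were not tested because they combine members.

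**Figure D3:**
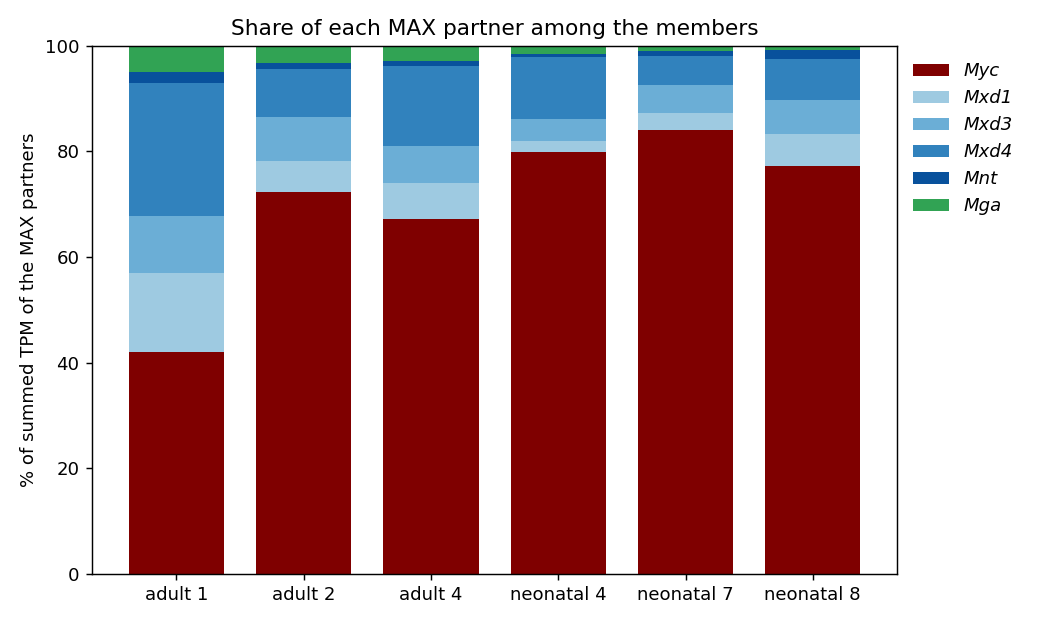
Share of each MAX-pairing member in the summed TPM of these members (percent, stacked to 100), with 1 bar per library; Mycn had no reads and is not drawn. Myc fills 42.0 to 72.3% of the adult bars and 77.3 to 84.1% of the neonatal bars.

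The genes most like Myc and Myb over the 6 libraries were taken as the 3 with the highest Pearson correlation of log2 CPM among 8151 other genes with a mean of at least 10 CPM, predicted genes (Gm and Rik symbols) left out. For Myc these were Pecam1, an adhesion molecule of endothelial and blood cells (r = 0.991), Tmem185b (r = 0.986) and Epha7, an ephrin receptor (r = 0.979). Epha7 was at 2.78, 144.5 and 78.4 CPM in adult replicates 1, 2 and 4, against 153, 304 and 203 CPM in neonatal replicates 4, 7 and 8, and like Myc it was lowest in adult replicate 1. For Myb they were Tinf2, a telomere protein gene (r = 0.9905), Efr3a (r = 0.978) and Papola, a poly(A) polymerase gene (r = 0.969). The correlations rest on 6 libraries that also differ in depth and group, and the genes were picked for a high value. The correlations are therefore given without a test.

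Of 87 genes in 8 lists of the wider network, 0 were called on 6 libraries by edgeR, 3 had an unadjusted p below 0.05 (Cd34, Pcgf6 and Gfi1), limma voom called 0 and DESeq2 called 1 (Pcgf6). Of all genes, 0.0527% were called by edgeR and by limma voom, 5.72% by DESeq2, and 11.9% had an unadjusted p below 0.05 in edgeR. Without neonatal replicate 4, edgeR called 5 of 87, 2 higher and 3 lower in adult LICs. DESeq2 then called 17 and limma voom 6. Of all genes these tests called 5.98% in edgeR, 24.0% in DESeq2 and 6.70% in limma voom, shares near or above those of the 87. Over all genes the median log2 fold change was -0.05 on 6 libraries and 0.05 without neonatal replicate 4.

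MYC-induced genes of nucleolar function, metabolism and growth mostly had lower values in adult LICs, but none passed. Of 30 tested, 26 were negative on the log2 scale on 6 libraries (median -0.43), beside 7106 of 13272 over all genes. Of the 30, edgeR called 0 on 6 libraries and 0 had an unadjusted p below 0.05. Without neonatal replicate 4 there were 20 of 30 negative (median -0.31), beside 6647 of 13856 over all genes. Of the 30, edgeR then called 0, while DESeq2 called 3, 1 higher and 2 lower, where it called 24.0% of all genes. Ldha, the lactate dehydrogenase gene, had an adult mean of 1503 ± 142 CPM and a neonatal mean of 2560.3 ± 754.5 CPM (SD, n = 3 each), without overlap (log2 fold change -0.77 ± 0.34, SE, edgeR adjusted p = 0.431, and -0.54 without neonatal replicate 4, adjusted p = 0.142). Tfrc, the gene of the transferrin receptor, through which cells take up iron, had values in the other direction, with an adult mean of 109 ± 25.5 CPM and a neonatal mean of 63.3 ± 19.25 CPM (SD, n = 3 each). Its groups overlapped in 1 library of each, and the log2 fold change was 0.79 with an SE of 0.34 (edgeR adjusted p = 0.421). It was 1.03 without neonatal replicate 4, where its groups were apart (edgeR adjusted p = 0.0658). Npm1, the nucleophosmin gene, and Hspe1, a mitochondrial chaperonin gene, are outside the naming rule and were chosen after their values were seen. Their log2 fold changes were -0.49 and -0.61 on 6 libraries and 0.51 and 0.75 without neonatal replicate 4.

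MYB-induced genes had values in both directions. Of 10 tested, which include Myc, 4 had a positive and 6 a negative log2 fold change (median -0.15), 0 were called on 6 libraries by edgeR, DESeq2 or limma voom, and 2 had an unadjusted p below 0.05 in edgeR (Cd34 and Gfi1). On the 5 deeper libraries the median was 0.05 and edgeR called 3 of 10, where it called 5.98% of all genes. Elane, the neutrophil elastase gene, was then higher in adult LICs (2.82 ± 0.41 on the log2 scale, SE, edgeR adjusted p = 0.0361), at 9479, 8257 and 9070.4 CPM in adult replicates 1, 2 and 4, against 7806, 1785.5 and 726 CPM in neonatal replicates 4, 7 and 8. Prtn3, the proteinase 3 gene, was also higher (1.59 ± 0.33, SE, edgeR adjusted p = 0.0469). Kit, whose product is the receptor for stem cell factor, was lower (-1.75 ± 0.28, SE, edgeR adjusted p = 0.0361), at 50.05, 66.65 and 85.8 CPM in adult replicates 1, 2 and 4, against 23.6, 264 and 186 CPM in neonatal replicates 4, 7 and 8. Neonatal replicate 4 stood just below the adult libraries for Elane, above them for Prtn3 and below them for Kit, and on all 6 libraries the adjusted p-values were 0.549 for Elane, 0.8415 for Prtn3 and 0.571 for Kit.

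The MYB cofactor Men1, which encodes menin, the adaptor that ties MLL1 to chromatin, was at 15.0, 26.8 and 28.5 CPM in adult replicates 1, 2 and 4, against 13.75, 62.8 and 94.5 CPM in neonatal replicates 4, 7 and 8. With neonatal replicate 4 left out, Men1 was lower in adult LICs (-1.76 ± 0.34 on the log2 scale, SE, edgeR adjusted p = 0.0437), and on 6 libraries the adjusted p was 0.489. Of the 6 MYB cofactors 0 were called on 6 libraries by edgeR, DESeq2 or limma voom, with 0 at an unadjusted p below 0.05 in edgeR and a median log2 fold change of 0.05, which was -0.19 without neonatal replicate 4. Among 16 MYC cofactors and turnover genes (median -0.22, and -0.42 without that library), 0 were called on 6 libraries by any of these 3 tools and 0 had an unadjusted p below 0.05 in edgeR. Kat2a, which encodes the GCN5 acetyltransferase that MYC recruits, was called without neonatal replicate 4, lower in adult LICs (-1.09 ± 0.21, SE, edgeR adjusted p = 0.0437), and on 6 libraries it was -0.76 with an adjusted p of 0.536. Its level was 47.5, 64.8 and 67.6 CPM in adult replicates 1, 2 and 4, against 49.3, 131.5 and 122 CPM in neonatal replicates 4, 7 and 8.

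Partners of MGA had values in both directions. Of 9 tested, 4 had a positive and 5 a negative log2 fold change (median -0.10, and 0.05 without neonatal replicate 4), and edgeR called 0 with and without that library. DESeq2 called 1 on 6 libraries and 3 without it, beside its 5.72% and 24.0% of all genes. Pcgf6, which encodes the subunit that defines this Polycomb-type complex, was at 1.64, 5.08 and 7.87 CPM in adult replicates 1, 2 and 4, against 33.5, 17.7 and 13.3 CPM in neonatal replicates 4, 7 and 8, with no overlap (log2 fold change -2.13 ± 0.65, SE, edgeR adjusted p = 0.248, DESeq2 adjusted p = 0.0219, and 0.0219 to 0.483 over 20 alternatives). Leaving neonatal replicate 4 out gave -1.68 (edgeR adjusted p = 0.140). Yaf2, a gene of a RING-binding subunit, had values in the other direction (0.77 ± 0.41, SE, edgeR adjusted p = 0.523, and 1.17 without neonatal replicate 4, adjusted p = 0.0693). The 6 corepressor genes that MXD and MNT recruit had a median of -0.07, or -0.085 without neonatal replicate 4, and 0 calls in edgeR, DESeq2 or limma voom, with and without neonatal replicate 4. The 2 of them with the smallest p were Sap30 (-0.99 ± 0.52, SE, edgeR adjusted p = 0.512) and Sin3b (-0.25 ± 0.33, SE, edgeR adjusted p = 0.833), and Sap30 stood at 153 CPM in neonatal replicate 4 and at 30.9 to 49.5 CPM in the 5 others. Without that library Sap30 was -0.21 (edgeR adjusted p = 0.623) and Sin3b -0.006 (0.9903).

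Of the 8 other MYC and MYB family genes (median 0.38, and 0.08 without neonatal replicate 4), 0 were called by edgeR, DESeq2 or limma voom on 6 libraries, and 6 had a positive log2 fold change. Mxi1, the remaining MXD family gene, was at 277, 234 and 219 CPM in adult replicates 1, 2 and 4, against 164, 166 and 202 CPM in neonatal replicates 4, 7 and 8, without overlap (0.45 ± 0.28, SE, edgeR adjusted p = 0.5799, and 0.39 without neonatal replicate 4, adjusted p = 0.229). The 2 genes induced by the related sensor MondoA, Txnip (0.23 ± 0.45, SE, edgeR adjusted p = 0.899) and Arrdc4 (0.26 ± 0.50, SE, edgeR adjusted p = 0.8999), had overlapping groups, and neither was called by the 3 tools. On the 5 deeper libraries they were -0.03 and 0.15 (edgeR adjusted p = 0.968 and 0.886).

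**Figure D4:**
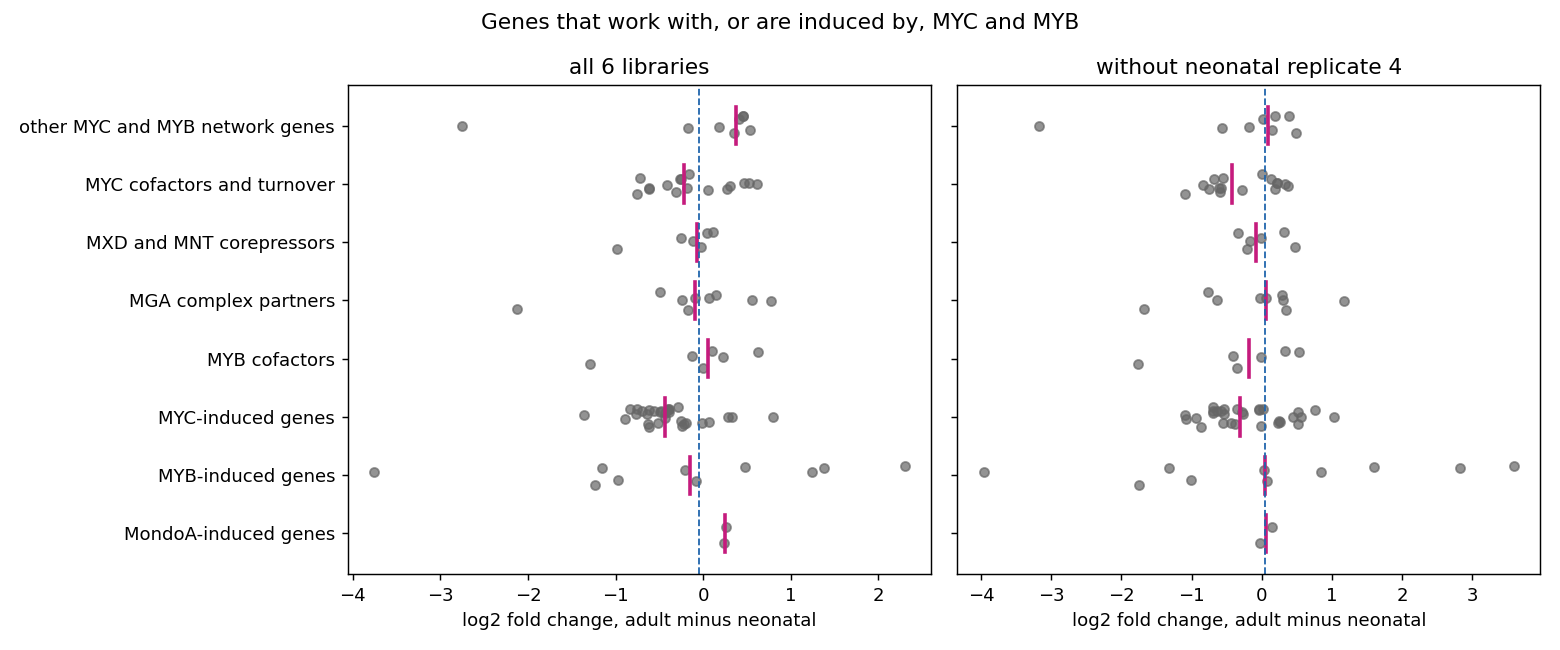
Log2 fold changes, adult minus neonatal, of the tested genes in the 8 lists of the wider network (grey points), the median of each list (magenta line) and the median of all genes (dashed line), on all 6 libraries (left) and without neonatal replicate 4 (right). The median of the MYC-induced genes is -0.43 on the left and -0.31 on the right, and the MYB-induced genes are the most spread.

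Marker genes of maturing neutrophils and of progenitors differed between the groups in summed level. All 12 maturing neutrophil markers had a positive log2 fold change (median 2.40), and 10 of 12 without neonatal replicate 4 (median 2.50). Their sums were 1956 to 15284 CPM in adult and 251 to 446 CPM in neonatal LICs. Ngp, Camp, S100a8 and S100a9 made up most of each adult sum, and Lcn2, Cd177 and Padi4 most of each neonatal one. The smallest log2 fold changes on 6 libraries were those of Cxcr2 (0.093), Padi4 (0.155), Mmp8 (0.311) and Mmp9 (0.384), all with overlapping groups. The 7 stem and progenitor markers, which include Kit and Cd34 and were all detected, summed to 310 to 379 CPM in adult and 806 to 2812 CPM in neonatal LICs. Of these 7, 2 were positive (Hoxa9 and Ly6a) and 5 negative on the log2 scale in both fits, and Flt3, Cd34 and Gata2 made up most of the neonatal sum. The 10 proliferation markers summed to 2776.5 to 3387 CPM in adult and 2630 to 3423 CPM in neonatal LICs, with overlap. Of these 10, 3 were positive and 7 negative on 6 libraries, and 7 positive and 3 negative without neonatal replicate 4. In that second fit edgeR called 1, Mki67, higher in adult LICs (0.832, adjusted p = 0.0487), and Plk1 was at -1.002 (adjusted p = 0.0551). Monocyte and macrophage markers (7) summed to 1614 to 2584 CPM in adult and 1453 to 4328 CPM in neonatal LICs. Ly6c2 made up most of each sum. Of these 7, 4 were positive and 3 negative on the log2 scale in both fits. Cd68 was lower (-1.56, edgeR adjusted p = 0.140) and Mpeg1 higher (1.18, edgeR adjusted p = 0.269) in adult LICs on 6 libraries, each without overlap. Fcgr1 had 32 to 58 counts in the adult libraries and 0 in the neonatal ones. Markers of B cells summed to 28.5 to 69.4 CPM in adult and 72.0 to 147 CPM in neonatal LICs, with Ms4a1 and Pax5 at 0 in all libraries. T cell markers summed to 0.821 to 1.93 CPM in adult and 0.897 to 1.85 CPM in neonatal LICs, with Cd3e, Cd3g and Cd4 at 0 throughout. Erythroid markers summed to 2.65 to 7.92 CPM in adult and 1.09 to 5.98 CPM in neonatal LICs, with Hba-a1, Hba-a2 and Hbb-b1 at 0. The part of maturing and progenitor cells in the differences of Myc, Max, Mga and Myb was not tested either.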

How the data were processed

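The authors deposited unnormalised counts of reads in each gene. They came from featureCounts (version 1.5.1, primary alignments, no strand option) and a UCSC mm10 annotation, per the file headers. Trimmomatic, Bowtie, TopHat and DESeq2 are named, without versions, per the submitters' processing notes. Per the labels' protocols, RNA was polyA-selected and read single-end. Coordinates and exon lengths (in bases, as deposited beside the counts) are those of the file.

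Adult LICs were compared with neonatal LICs, adult minus neonatal, in edgeR 4.0.16 (R 4.3.3) with filterByExpr (minimum count 10), TMM scaling, a robust quasi-likelihood fit, its F test and Benjamini-Hochberg adjustment over all genes kept (threshold 0.05). The SE of a log2 fold change is its size divided by the square root of F, and the 95% intervals use it. CPM used TMM-scaled library sizes; TPM used deposited exon lengths. Log2 CPM used a prior count of 2. DESeq2 1.42.0 and limma 3.58.1 were alternatives. The fits were also run on simulated counts that held no length trend, and no result here rests on that run.

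The members and lists were chosen with earlier results of these data known. Of 141 listed genes 139 were in the file, 3 through synonyms. Named besides the members were up to 4 called genes per list and fit, or else the 2 with the smallest p. Low counts in neonatal replicate 4 limit precision, and the Poisson intervals and limits for a count of 0 cover counting error only.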

Additional observations from a re-analysis of the deposited data

How the results depend on the processing

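The 20 alternatives covered tests, scalings, filters, thinning, left-out libraries and, added after the data were seen, removal of each library's length trend with and without neonatal replicate 4. The number of genes called was 7 on 6 libraries. It was 759 with DESeq2, 1056 with limma voom and sample quality weights, 0 with at least 1 CPM required in every library (1043 at an unadjusted p below 0.05) and 4 after thinning. It ran from 1 to 828 with 1 library left out in turn. Without neonatal replicate 4 it was 3320 with DESeq2, 928 with limma voom and 459 with the length trend removed. Called members numbered 0 under 19 of the 20 alternatives, also with each library left out (0 to 0), and 3 in DESeq2 without neonatal replicate 4.

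Over the 20 alternatives the log2 fold change kept its sign for Myc (-1.57 to -0.79, adjusted p 0.0405 to 0.711), Max (-0.96 to -0.57, 0.0116 to 0.777), Mga (0.12 to 1.05, 0.0192 to 0.940), Myb (0.30 to 0.66, 0.206 to 0.898) and Mxd3 (-0.51 to -0.05, 0.337 to 0.9915). With 1 library left out in turn, Mxd1 ran from -0.163 to 0.728, Mxd4 from -0.102 to 0.119, Mnt from -0.925 to 0.022, Txnip from -0.245 to 0.507 and Arrdc4 from -0.40 to 0.628. Mxd1 was also -0.043 with quality weights and, without neonatal replicate 4, -0.163 in edgeR, -0.166 in DESeq2, -0.12 in voom and -0.088 with the length trend removed. Mxd4 was -0.013 with DESeq2, -0.025 with RLE factors and -0.279 after thinning. Txnip was -0.032 with quality weights and, without neonatal replicate 4, -0.032 in edgeR, -0.031 in DESeq2 and -0.137 in voom. Arrdc4 was -0.005 in voom, -0.129 with quality weights and -0.068 in voom without neonatal replicate 4. Sin3b was 0.104 with the length trend removed and that library left out. Over the alternatives the adjusted p ran from 2.60e-11 to 0.839 for Elane, 4.94e-05 to 0.991 for Prtn3, 1.14e-06 to 0.876 for Kit, 6.76e-05 to 0.829 for Men1 and 0.000115 to 0.854 for Kat2a. The cause was not tested. No paired analysis was possible because the groups share only the replicate number 4. In neonatal replicate 4 a count of 0 allows up to 0.763 CPM, which limits Mycn there.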
